A study of Drosophila melanogaster with 3 samples.

Results

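Of the 3276 reproducible Elba2 peaks called in young Drosophila melanogaster embryos, 280 peaks (8.55%) carried an exact copy of the 8-bp palindrome CCAATTGG, the published site of the BEN-domain protein Insensitive, wholly within 100 bp of the summit and carried no exact ELBA site of the Fab-7 boundary (CCAATAAG, either strand) in the same window. These members were selected on the deposited peak positions and on sequence, so the presence of the palindrome in them is the rule and not a finding. The remaining peaks comprised 206 with the ELBA site alone (6.29%), 20 with both words (0.611%, left out of the 280) and 2770 with neither word (84.6%). The assay was chromatin immunoprecipitation followed by sequencing (ChIP-seq), run on 3 biological replicates of a single group, which were whole embryos of both sexes aged 0 to 4 h from the transgenic strain CG9883-GFP. The strain carries Elba2 with enhanced green fluorescent protein at its C terminus, and chromatin was recovered with an antibody against this tag. There is no treated or mutant group, whole embryos mix all cell types present at that age, and the library used as control for peak calling was not analysed here. Depth per sample is unknown because the deposited lists hold peaks and no read counts, so strength is given as a rank by the authors' signal value within a list, with rank 1 the strongest.

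ELBA is an early embryonic complex of Elba1, Elba2 and Elba3 that was found through its binding to the Fab-7 boundary, an insulator element of the bithorax Hox cluster. Elba1 and Elba2 contact DNA through a BEN domain, a fold shared by several chromatin and insulator proteins, and Elba3 joins them. Insensitive is a related protein with a single BEN domain that acts as a transcriptional repressor in the Notch pathway and binds its self-complementary site as a homodimer. A palindrome reads the same on both strands, so a copy has no orientation.

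The following sequences are the 30 bases around the copy nearest the summit in 12 of the strongest palindrome peaks, shown because they let the bases next to the core be read beside the peak's rank. They are plus-strand reference sequence of the dm6 assembly (Release 6), and capitals mark the palindrome.
CG5087 (chr3L:8998217-8998246, rank 5): acactgtaccaCCAATTGGaacaaaataag
numb (chr2L:9453183-9453212, rank 9): aaattgctaaaCCAATTGGccaacagctgt
crol (chr2L:11809060-11809089, rank 12): ttcggccgggtCCAATTGGccaatttgaat
spg (chr3R:28845455-28845484, rank 24): agtgtagaaatCCAATTGGaagttcggctg
CG8372 (chr2L:8212800-8212829, rank 25): cgctaacaattCCAATTGGgctttaattgt
eRF1 (chr3L:20349846-20349875, rank 58): ggccactgttgCCAATTGGgattcgctttg
Dlic (chrX:11155057-11155086, rank 74): catcccgtttcCCAATTGGacccagccagg
Nuak (chr3R:10264284-10264313, rank 86): ggccaagaattCCAATTGGtggtgagttca
CG6966 (chr3R:15094779-15094808, rank 94): ctagcaactttCCAATTGGacggcccaggt
beat-Ia (chr2L:16049925-16049954, rank 95): ttggccattcgCCAATTGGgaaatctgtgc
knrl (chr3L:20603801-20603830, rank 103): gttttatagcaCCAATTGGcccacgggcga
CG9917 (chrX:16323159-16323188, rank 107): ggatggaaatcCCAATTGGagattctatcc
The copies at spg and CG6966 have a T directly before the core and an A directly after it, whereas those at numb, beat-Ia and knrl have neither. The copy printed for eRF1 has neither as well, and the other copy of that peak, printed further on, has both.

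The strongest palindrome peaks ranked near the top of every replicate. The strongest of all had its summit 14 bp downstream of a transcription start site (TSS) of alc on arm 2R, which encodes the beta subunit of the energy-sensing kinase AMPK, and ranked 3, 6 and 3 in replicates 1, 2 and 3. The summit 5 bp downstream of a CG5087 TSS also lay within 500 bp of a TSS of smg, which encodes Smaug, an RNA-binding repressor that clears maternal mRNAs, and ranked 5, 8 and 4. The summit in an intron of numb, an inhibitor of Notch signalling in asymmetric cell divisions, lay 3372 bp downstream of the nearest protein-coding TSS and ranked 14, 11 and 9. These 3 peaks stayed among the 20 highest regions of each replicate. The summit 121 bp upstream of a TSS of crol, a zinc-finger transcription factor gene, ranked 20, 9 and 13, and so stayed among them too. At spg, which encodes a DOCK-family exchange factor, the summit lay 175 bp downstream of the TSS and ranked 29, 30 and 21. With alc, CG5087, numb and crol, spg completed the 5 members whose worst replicate rank was lowest.

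Over the 20 strongest members the worst rank in any replicate was 278, at Mnn1, the fly homologue of menin. Of these 20 summits, 15 lay within 500 bp of a TSS and 14 had the copy centred within 25 bp of the summit. The promoters among them include those of coro (the actin regulator coronin), Lnpk (an endoplasmic reticulum protein, sharing its promoter with rgr), RpL29 (a large-subunit ribosomal protein, sharing it with the SAGA subunit gene Sgf29), Nuak (an AMPK-related kinase), MESK2, beat-Ia (an axon guidance protein), CG33144, CG9917 (shared with CG32579), mge (a subunit of the mitochondrial import receptor) and Mnn1. The ranks of beat-Ia were 206, 85 and 59 and those of mge were 123, 81 and 263, so different replicates gave the weakest rank of these peaks. Of the 100 strongest optimal peaks, 15 were members.

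**Figure D1:**
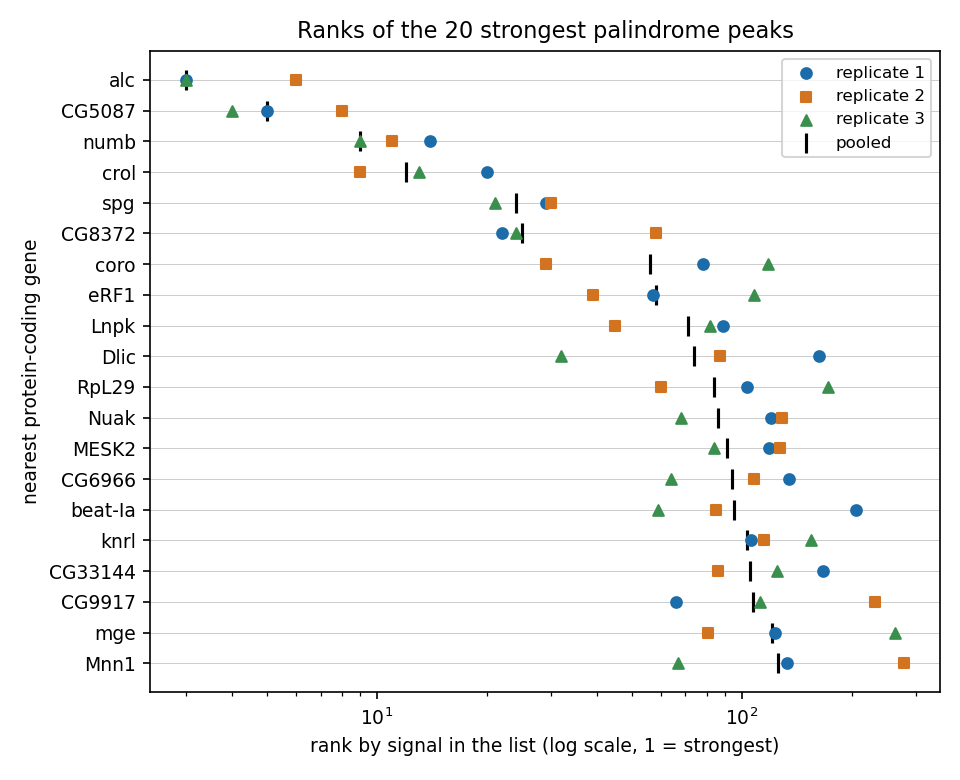
Rank by signal (log axis, rank 1 the strongest) of the 20 strongest palindrome peaks in replicates 1 (circles), 2 (squares) and 3 (triangles) and in the pooled list (bars), labelled by nearest protein-coding gene. The alc peak ranked 3, 6 and 3, and no point lies beyond rank 278.

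Palindrome peaks stood higher in the ranking than peaks with neither word. Their median rank in the optimal set was 1195, at 36.5% of the list, against 1730, at 52.8%, for peaks with neither word, and 183 of the 280 (65.4%) against 1308 of the 2770 (47.2%) fell among the first 1638 ranks. The comparison was repeated in the 3276 strongest regions of each replicate's own list, which held 241, 265 and 289 palindrome regions in replicates 1, 2 and 3. There the median rank stood at 34.5% ± 1.75 of the list for palindrome regions and at 52.7% ± 0.705 for regions with neither word (SD, n = 3). The differences were -15.6, -18.3 and -20.5 percentage points, with a mean of -18.1 ± 2.42 (SD, n = 3), and the 3 replicates had the same sign. The exact two-sided sign-flip test over the 3 replicates gave p = 0.25, the smallest value that 3 replicates allow. The optimal set was built from the same replicates, so these lists are not independent of the rule. Peaks with the ELBA site alone had a median rank of 1214, close to that of the palindrome peaks.

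The share of regions with the palindrome and no ELBA site fell along the pooled list of 28496 regions. It was 15% in ranks 1 to 100 (exact 95% interval 8.65 to 23.5), 12.6% in ranks 101 to 1000 (10.5 to 14.9), 6.68% in ranks 1001 to 3276 (5.69 to 7.78), 3.97% in ranks 3277 to 6552 (3.33 to 4.69), 2.75% in ranks 6553 to 9828 (2.21 to 3.37) and 1.19% in the remaining 18668 regions (1.04 to 1.36). As a control word, the ELBA site was read backwards (GAATAACC, either strand), which has the base composition of the ELBA site and 1 fewer G or C than the palindrome. It was held by 0 of the first 100 regions, 0.444%, 0.395%, 0.641%, 0.366% and 0.279% in the same order. Intervals here and below are Clopper-Pearson 95% intervals, which cover counting error over peaks, copies or genes and not the spread between embryos. In the 3276 strongest regions of single replicates, 8.65% ± 0.717 held the palindrome, with or without the ELBA site, and 0.448% ± 0.0705 held the control word (SD, n = 3). The difference was 7.45, 8.27 and 8.88 percentage points in replicates 1, 2 and 3 (exact two-sided sign-flip test, p = 0.25, the smallest possible).

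The lowest-ranked members lay near HDAC3 (rank 3255), Sugb (rank 3266) and CG12617 (rank 3273), and the next pooled regions with the palindrome, outside the optimal set, lay near RNASEK (rank 3283), sc (rank 3305) and COX4 (rank 3319). The copies farthest from a member's summit were centred 96.5 bp away at svp and UQCR-11 and 94.5 bp away at pre-lola-G. The nearest copies just outside the window were centred 102.5, 103.5 and 104.5 bp from the summits near CG42671, CG13101 and Tl.

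Of the 280 palindrome peaks, 203 (72.5%, 66.9 to 77.6) coincided with a region among the 3276 strongest of all 3 replicates, taking summits at most 200 bp apart as one site. The background over all optimal peaks was 56.3%, and for peaks with neither word it was 1474 of 2770 (53.2%). By replicate, 85.4%, 88.9% and 89.6% of the palindrome peaks were found in replicates 1, 2 and 3, against 84.9%, 80.4% and 73.5% of the peaks with neither word. The mean was 88.0% ± 2.30 for palindrome peaks and 79.6% ± 5.74 for peaks with neither word (SD, n = 3), so the difference was small in replicate 1 and wider in replicates 2 and 3. Peaks with the ELBA site alone were found in all 3 replicates at 72.8%, and so this recovery was not particular to the palindrome.

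Recovery followed rank within the members, but this was largely built in. The pooled ranks came from the same 3 replicates, and recovery was itself a cut-off on replicate rank. Members near that cut-off in the pool can easily fall beyond it in a replicate, so no conclusion was drawn from the trend. Split into 4 groups of 70 from the strongest to the weakest, 100%, 97.1%, 75.7% and 17.1% of the palindrome peaks were among the strongest regions of all replicates. Among the first 1638 ranks of the optimal set the share was 96.2% for palindrome peaks (92.3 to 98.4) and 89.7% for peaks with neither word (87.9 to 91.3), and among the later ranks it was 27.8% (19.2 to 37.9) and 20.6% (18.5 to 22.8). The intervals, which count peaks and not embryos, did not overlap among the earlier ranks and did among the later ones. The peaks were not matched for rank within these parts of the list, and the part of rank in the gap was not tested. At any rank, 275 of the 280 members (98.2%) had a region within 200 bp of the summit in every replicate. This was near the background of 97.1% over all optimal peaks and the 96.8% of peaks with neither word. Spearman's rho between replicate ranks over the members was 0.733 for replicates 1 and 2 (n = 277), 0.745 for replicates 1 and 3 (n = 278) and 0.706 for replicates 2 and 3 (n = 275), given as a description since all points come from the same 3 libraries. Over peaks with neither word rho was 0.638, 0.482 and 0.505 for the same pairs, and the 2 kinds of peak were not matched for rank.

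The rank of a member in a replicate is that of the strongest region within 200 bp of its summit, and with the nearest region in its place 12 of 835 ranks differ. The 5 members with the widest rank gaps lay near Btk, CG17896, CG43783, Rel and CG32295. The promoter peaks of Btk, a tyrosine kinase gene, and of CG17896 ranked lowest in replicate 2, at 15878 and 13289. The intron peak at CG43783, which also lies within orb2, ranked 12176, 2995 and 1329. At Rel, the gene of the NF-kappaB factor Relish, the summit lay 56 bp upstream of the TSS and ranked 367, 9469 and 309 in replicates 1, 2 and 3, and with the nearest region its rank in replicate 3 would be 19705. The peak nearest CG32295, in an intron of Spn, ranked 4333, 9755 and 922. Replicate 2 gave the lowest rank at 4 of these 5 peaks, and replicate 1 did at CG43783. The 5 members with no region at all in some replicate were egl, CG3793 and GATAd, which lacked one in replicate 2, and RASSF8 (its promoter shared with Tnks) and mRpL13 (shared with CG10602), which lacked one in replicate 3. Of these 5, egl was the strongest, at rank 684 in the pooled list, with ranks 458 and 433 in replicates 1 and 3.

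Copies lay close to the summits, which the rule fixed only to within 100 bp. The copy nearest the summit was centred at a median distance of 20.5 bp in the pooled optimal set, within 25 bp in 159 members (56.8%) and within 50 bp in 236 (84.3%). It was more than 75 bp away in 15 members (5.36%). With each replicate's own strongest 3276 regions and own summits, the median distance was 23.5, 25.5 and 23.5 bp in replicates 1, 2 and 3. The plus-strand offsets were spread on both sides, with 64 of the 290 copies from 20 to 0 bp before the summit and 73 from 0 to 20 bp after it. The 70 weakest members had a median distance of 29.0 bp and the 3 stronger groups of 70 had 20, 15.5 and 19.0 bp, from the strongest down.

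**Figure D2:**
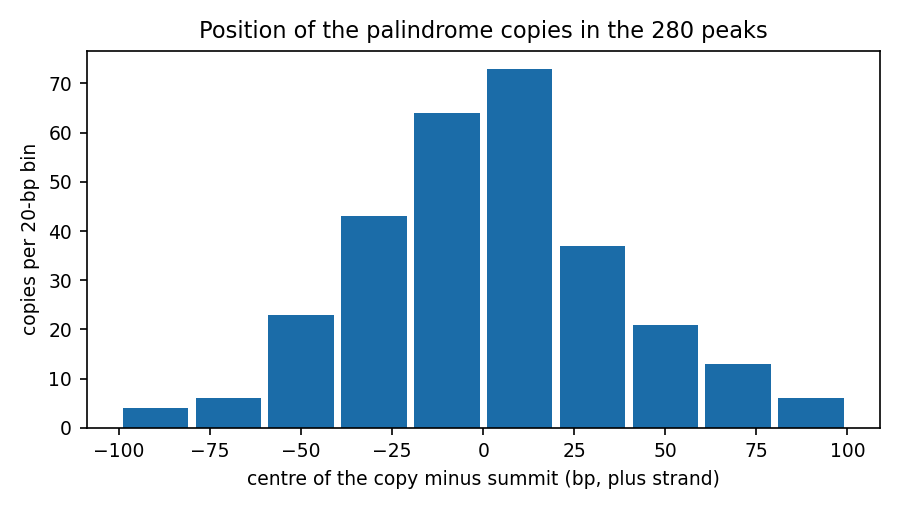
Number of palindrome copies per 20-bp bin (vertical axis) by the distance from the summit to the centre of the copy on the plus strand (horizontal axis, bp), over the 290 copies of the 280 peaks. The 2 bins next to the summit hold 64 and 73 copies, and the outermost bins hold 4 and 6.

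Most members held 1 copy. Within 100 bp of the summit, 272 peaks (97.1%) had 1 copy, 6 had 2 and 2 had 3, so that 8 peaks (2.86%, 1.24 to 5.55) had 2 or more. Within 1000 bp of the summit 27 members (9.64%) had 2 or more. This was not counted around other peaks, so it does not show whether copies cluster. The 8 peaks with several copies did not stand at the top of the list as a group, with a median rank of 1458 and ranks from 58 to 2663, although no test was made of so few peaks.

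The peak with 2 copies at rank 58 lies in an intron of eRF1, the translation release factor gene, 937 bp downstream of the nearest TSS, and ranked 57, 39 and 108 in replicates 1, 2 and 3. The copies start 23 bp apart. At Acat1, an acetyl-CoA acetyltransferase gene on the X, 2 copies start 44 bp apart, 199 bp downstream of the TSS, and the peak ranked 272, 840 and 169. The peaks with 3 copies lie at ND-ASHI, a gene of a respiratory complex I subunit on the X that shares the site with the fumarase gene Fum1, and 703 bp upstream of nub, a POU-domain transcription factor gene. The ND-ASHI peak ranked 1811, 529 and 258, with steps of 39 and 17 bp between copies. The nub peak ranked 3841, 1347 and 516, with steps of 113 and 30 bp. Both 3-copy peaks were weakest in replicate 1 and strongest in replicate 3. The other multi-copy peaks lie at Cph, mnb, Myo10A and SCCRO4, each with 2 copies.

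The spacing and flanks of the copies at nub, eRF1 and Acat1 are shown in full, on the plus strand of dm6 with 10 bases on each side, because, taken by number of copies and then by rank, they are the first 3 whose span lies outside annotated UTRs. Capitals mark the palindrome.
nub (chr2L:12586822-12586992): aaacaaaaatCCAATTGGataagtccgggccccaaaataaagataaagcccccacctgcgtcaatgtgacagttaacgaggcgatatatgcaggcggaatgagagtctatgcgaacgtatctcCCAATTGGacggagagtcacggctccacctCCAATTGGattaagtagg
eRF1 (chr3L:20349824-20349874): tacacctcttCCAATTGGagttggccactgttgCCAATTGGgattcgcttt
Acat1 (chrX:7888510-7888581): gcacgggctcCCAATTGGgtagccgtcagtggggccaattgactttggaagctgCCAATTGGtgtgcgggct
All 3 copies at nub are followed by an A, and the first and the last of them are also preceded by a T. At eRF1 the first copy has both flanks and the second has neither, and at Acat1 neither copy has either.

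The bases next to the core differed between copies in members and copies elsewhere in the genome. With every copy read on both strands, the base after the core was A in 51.9% of the 290 member copies and in 24.5% of the 2200 genomic copies that lay at no pooled region, and the second base was A in 44.1% against 27.4%. Of the member copies, 74 (25.5%, 20.6 to 30.9) had both the T before and the A after the core, against 160 of the 2200 copies at no region (7.27%, 6.22 to 8.44). Copies at weaker pooled regions only lay between them, at 70 of 453 (15.5%, 12.2 to 19.1). From the seventh base on, the member copies had between 24.8% and 29.3% A. The median GC content of the surrounding 200 bp was 44.2% for member copies and 44.0% for copies at no region. Over members, the 73 with both flanks had a median rank of 921, against 1254 for the 148 with 1 of them and 1275 for the 59 with neither. These classes also differed in place, with 61.6%, 44.6% and 54.2% at promoters. Promoter members had a median rank of 779, against 1452 for the others, and the part of place was not tested. In the groups of 70 members from the strongest to the weakest, 25.7%, 32.9%, 21.4% and 24.3% had both flanks, with no steady trend.

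Looked at from the genome, most copies of the palindrome were not at an optimal summit. The arms hold 2964 copies, of which 311 (10.5%, 9.41 to 11.7) lay within 100 bp of an optimal summit, counting those in the 20 peaks with both words, 453 (15.3%) lay at a weaker pooled region only and 2200 (74.2%) lay at no pooled region. The same share in the 3276 strongest regions of single replicates was 9.01%, 9.92% and 10.7%. For the control word, 13 of 2444 genomic copies (0.532%, 0.284 to 0.908) lay at an optimal summit.

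Copies at promoters, here within 500 bp of an annotated TSS, were more often at a summit than copies elsewhere. At promoters 155 of 557 copies (27.8%, 24.1 to 31.8) lay at an optimal summit, against 156 of 2407 (6.48%, 5.53 to 7.54) away from them. In single replicates the shares were 25.8% ± 0.726 at promoters and 6.20% ± 0.895 away from them (SD, n = 3), a difference far larger than the spread between replicates. For the ELBA site, 18.5% of 536 promoter copies (15.3 to 22.0) and 3.67% of 3623 other copies (3.08 to 4.34) lay at an optimal summit. The control word showed a gap in the same direction at lower shares, with 2.10% of 333 promoter copies (0.849 to 4.28) and 0.284% of 2111 other copies (0.104 to 0.618). A higher share at promoters was therefore not particular to the palindrome. Coding exons had the lowest share of the well-filled classes, with 20 of 509 copies (3.93%), and introns had 85 of 1046 (8.13%). Within promoters, 44.4% of the 108 copies with both flanks lay at an optimal summit, against 31.9% of the 229 with 1 and 15.5% of the 220 with neither. Away from promoters these shares were 17.1%, 9.90% and 2.46%. The order of the 3 flank classes was the same in each of the 3 replicates, both at promoters and away from them.

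**Figure D3:**
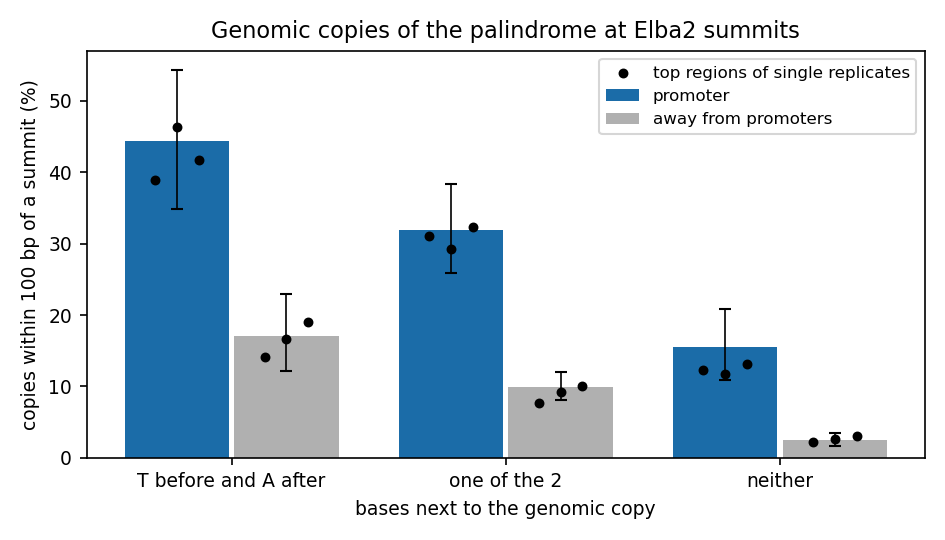
Percentage of genomic palindrome copies within 100 bp of an optimal summit (bars, with exact 95% intervals) at promoters and away from them, by whether the base before the copy is T and the base after it is A. Dots are replicates 1, 2 and 3 from left to right, each with its own 3276 strongest regions; shares run from 44.4% at promoters with both flanks to 2.46% away from promoters with neither.

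Palindrome peaks lay at promoters less often than peaks with neither word. Of the 280, 143 (51.1%, 45.1 to 57.1) had the summit within 500 bp of a TSS, against 1762 of 2770 (63.6%, 61.8 to 65.4) and a background of 61.1% over all optimal peaks. In the replicates' own lists the shares were 53.1%, 50.6% and 48.1% for palindrome regions and 65.8%, 62.6% and 60.2% for regions with neither word. The difference was -12.7, -12.0 and -12.1 percentage points in replicates 1, 2 and 3, with a mean of -12.3 ± 0.381 (SD, n = 3). It had the same sign in 3 of 3 replicates, with p = 0.25 in the exact two-sided sign-flip test, the smallest possible. With promoters taken as within 1000 bp of a TSS, the mean difference was -6.08 percentage points. Peaks with the ELBA site alone lay at promoters at 43.7% (36.8 to 50.8), below both, so a low promoter share was not particular to the palindrome. For scale, 13.3% of the arm sequence lies within 500 bp of a TSS and 18.8% of the genomic copies of the palindrome do.

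Among the members away from promoters, 72 (25.7%) lay in introns, 29 (10.4%) between genes, 20 (7.14%) in coding exons, 8 in 5' UTRs, 6 in 3' UTRs and 2 in other exons. The coding exon share of 7.14% (4.42 to 10.8) compared with 2.74% (2.17 to 3.42) for peaks with neither word, and in single replicates it was 5.39%, 6.42% and 7.96% against 1.71%, 3.43% and 4.11%. For peaks with the ELBA site alone it was higher still, at 13.1% (8.82 to 18.5), so a raised coding exon share was not particular to the palindrome. The shares in introns and between genes had intervals that overlapped those of the peaks with neither word, at 20.9% and 9.57%. Of the 137 members away from promoters, 106 lay inside a protein-coding gene. The same count was not made for the other optimal peaks, so no contrast is drawn from it.

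**Figure D4:**
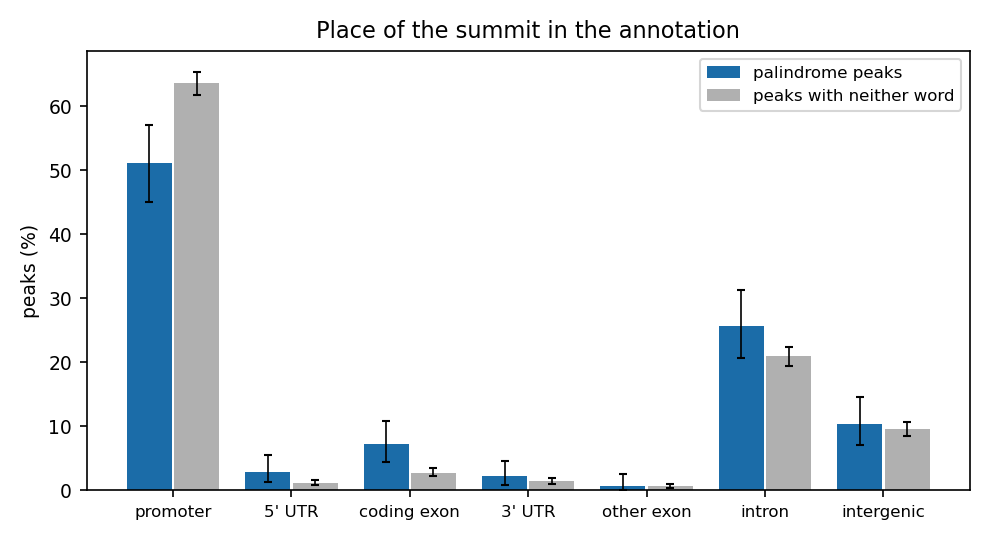
Percentage of peaks (vertical axis) by place of the summit for the 280 palindrome peaks and the 2770 peaks with neither word, with exact 95% intervals. The promoter bars stand at 51.1% and 63.6% and the coding exon bars at 7.14% and 2.74%.

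The 10 strongest members away from promoters were numb, eRF1, Dlic, CG6966, knrl, CG16964, nuf, SNF4Agamma, orb and CG30389, with pooled ranks from 9 to 243. The knrl peak lay 16815 bp downstream of the nearest TSS, in an intron of this gene of an orphan nuclear receptor of the knirps family, and ranked 106, 115 and 155. The Dlic peak, in the 5' UTR of the dynein light intermediate chain gene, ranked 163, 87 and 32. SNF4Agamma encodes the gamma subunit of AMPK, and its intron peak ranked 375, 265 and 154. The peaks in nuf (a centrosomal adaptor used in cellularisation) and orb (an RNA-binding regulator of translation in oogenesis) ranked 247, 159 and 247 and 334, 198 and 196, in that order. Only 30 of the 280 members (10.7%) lay over 5000 bp from the nearest protein-coding TSS, against 310 of 2770 (11.2%) of peaks with neither word.

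Around the TSS the palindrome summits lay further downstream. Of the 140 members within 500 bp of a protein-coding TSS, 65 (46.4%) were upstream of the nearest one, against 1135 of 1695 (67.0%) for peaks with neither word. In single replicates the upstream share was 49.6%, 47.0% and 40% against 69.3%, 67.4% and 54.0%, lower for palindrome regions in each. The bin from 100 bp upstream to the TSS held 20.7% of these members and 37.5% of the peaks with neither word, and the bin from 100 to 200 bp downstream held 13.6% and 5.60%. The median distance from the TSS was 126 bp for members and 84.0 bp for peaks with neither word. For peaks with the ELBA site alone it was 115 bp, nearer that of the members. Promoters with TSSs of 2 or more protein-coding genes within 500 bp made up 37 of the 140 (26.4%) against 756 of 1695 (44.6%), and 25% ± 1.83 against 42.7% ± 5.11 in single replicates (SD, n = 3). For peaks with the ELBA site alone they made up 28 of 85 (32.9%), and 30.3% ± 0.662 in single replicates, so a low share was not particular to the palindrome. The upstream share of those 85 peaks was 61.2%, above that of the members.

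**Figure D5:**
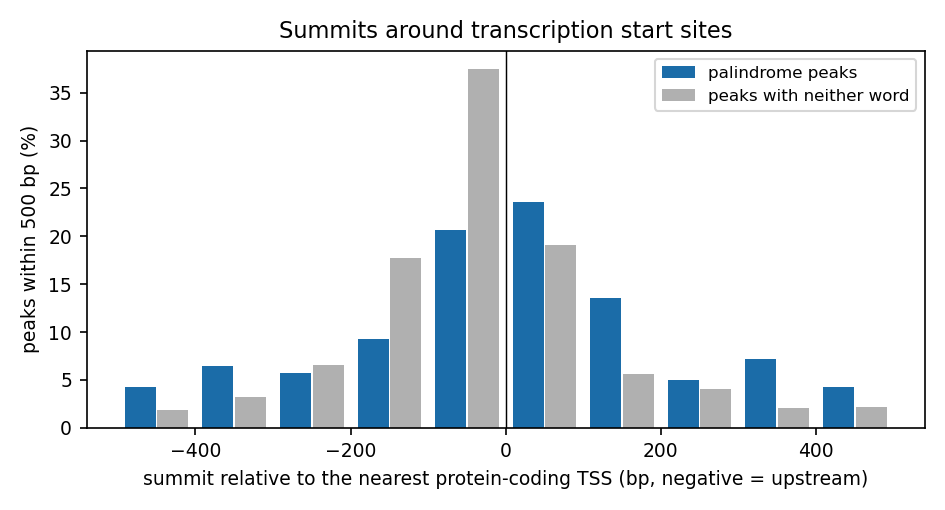
Percentage of the peaks within 500 bp of a protein-coding TSS (vertical axis) by summit position relative to the nearest such TSS (horizontal axis, 100-bp bins, negative upstream), for 140 palindrome peaks and 1695 peaks with neither word. The bin just upstream of the TSS holds 20.7% of the palindrome peaks and 37.5% of the others.

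In all, 176 of 13968 protein-coding genes (1.26%) had a palindrome summit within 500 bp of a TSS, and 17.9% had any optimal summit there. Lists of genes known from early development held small numbers of these. The segment polarity list had 2 of 22, which were mid (a T-box factor, ranks 467, 727 and 566 in replicates 1, 2 and 3) and hh (the Hedgehog ligand, ranks 862, 477 and 558). The pair-rule list had 1 of 14, opa, a zinc-finger regulator of segmentation with ranks 235, 207 and 415. Its summit was 1.5 bp from the centre of the copy. The maternal patterning list had 2 of 26, smg and egl, the gene of the dynein adaptor Egalitarian. The neuroblast list had 1 of 35, brat, a translational repressor in neuroblast daughters, which shares the promoter with Polr1D and ranked 1082, 496 and 1692. In the Notch pathway list, the pathway in which Insensitive acts, 1 of 25 had one, the glycosyltransferase gene fng, with ranks 4467, 1817 and 1080.

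None of the 8 Hox genes, 12 gap genes, 12 genes of the E(spl) complex, 74 other homeobox genes, 42 dorsoventral and BMP genes, 44 cell cycle genes, 38 genes of RNA polymerase II and its general factors or 14 glycolytic genes had a palindrome summit within 500 bp of a TSS. Several of these lists did have other optimal summits at their promoters, including 4 of the 8 Hox genes, 5 of the 12 E(spl) genes and 17 of the 38 polymerase II genes. At a background of 1.26% a list of this length would hold few or none, so these zeros carry no contrast. The Polycomb and Trithorax list had 1 of 37 and the insulator protein list 1 of 25, in both cases fs(1)h, a BET bromodomain gene that shares its promoter with the integrin gene mys, with ranks 146, 83 and 199. Of the housekeeping lists, the cytosolic ribosomal proteins had 2 of 91 (RpL29, ranks 103, 60 and 172, and RpL17, ranks 1672, 2510 and 2697), the proteasome 1 of 48 (Rpn7, sharing the promoter with AP-2mu, ranks 245, 82 and 267) and the mitochondrial ribosomal proteins 1 of 73 (mRpL13). The 99 cuticle genes and the 120 odorant and gustatory receptor genes, which are mainly expressed later in life, had no palindrome summit and no optimal summit at all within 500 bp of a TSS. The T-box list had 1 of 8 (mid) and the list of zygotic activators 1 of 12 (opa), both already named.

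Listed genes also had members farther away. Abd-B, the Hox gene regulated through Fab-7, had a palindrome summit in an intron, 1110 bp downstream of the nearest TSS, with ranks 1796, 1736 and 697. A summit in a 5' UTR lay inside both ush, which encodes a cofactor of the GATA factor Pannier, and cbt, whose TSS was the nearest at 573 bp, and it had ranks 1028, 806 and 63. At the homeobox genes Pph13 and slou the summits lay between genes, 4091 and 12736 bp from the TSS. The genes of the ELBA subunits and of Insensitive had no palindrome peak nearby, the closest being 69869 bp from an Elba1 TSS. The neighbouring genes insv and Elba2 had an optimal summit with neither word 126 and 883 bp from their TSSs, at rank 1857.

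Other words were looked for within 100 bp of the summits, on both strands. The ELBA-like word CCAATAGG lay in 3 members (1.07%, 0.222 to 3.10), against 126 peaks with neither word (4.55%, 3.80 to 5.39), 4.15% of all optimal peaks and 0.179% of 560 windows centred 500 bp to each side of the members. In single replicates it lay in 1.26% ± 0.236 of palindrome regions and 4.43% ± 0.736 of regions with neither word (SD, n = 3). The promoter word GGTCACAC, the site of M1BP, lay in 3.57% of members against 7.33% of peaks with neither word and 6.72% of all, and in single replicates in 3.41% ± 0.696 against 6.76% ± 1.27. The GAGA repeat GAGAGAGA went the other way, at 5.36% of members (3.03 to 8.68) against 2.64% (2.07 to 3.30) and 2.93% of all, and 4.92% ± 0.438 against 2.66% ± 0.719 in single replicates. The DRE word TATCGATA, the site of the promoter factor Dref, lay in 4.29% against 5.70%, and 5.34% of all. The Zelda word CAGGTAG lay in 2.14% against 1.52%, and 1.65% of all, with 2.14% of the flanking windows. The word AGGTGGCG from the core of the CTCF site lay in 1 member (0.357%) against 1.30%, and 1.22% of all. Of these words, the intervals of members and of peaks with neither word were separate for CCAATAGG only, and overlapped for the M1BP, GAGA, DRE, Zelda and CTCF words. Neither M1BP site nor DRE was present in 262 members (93.6%), against 2421 of the 2770 peaks with neither word (87.4%), so most peaks of both kinds lacked them. The members' windows had a median GC content of 44.3%, against 39.3% for peaks with neither word, and its part in these differences was not tested.

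The members were spread over the arms. They numbered 46 on 2L, 62 on 2R, 51 on 3L, 64 on 3R, 1 on the fourth chromosome and 56 on the X. As a share of the optimal peaks of each arm this was highest on the X (10.9%, 8.35 to 13.9) and on 2R (10.3%, 8 to 13.0) and lowest among the large arms on 3L (7.28%, 5.46 to 9.46), with overlapping intervals. Genomic copies of the palindrome occurred at 23.1 per Mb on the X and 21.6 per Mb on 3L. Neighbouring members lay a median of 275 kb apart, and 10 neighbouring pairs lay within 5000 bp of each other. The closest groups were a pair of summits 199 bp apart at Pfdn5 and 3 summits at Apc and spg on 3R, 964 and 201 bp apart, with pooled ranks 276, 24 and 868. Both spg summits lie in the same deposited region and took the same ranks, 30 and 21, in replicates 2 and 3. Both Pfdn5 summits likewise took ranks 1003 and 3239 there, so the recovery of these members was not counted independently. Other pairs lay at Oda, egl, sas, coro and wcy. Each member of these pairs had a copy of its own, since the 280 peaks held 290 different copies.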

How the data were processed

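Per the file headers, the authors called and deposited permissive region lists for each of 3 replicates (29295, 30000 and 30000 regions) and for the pool (28496), and took the 3276 optimal peaks by irreproducible discovery rate (IDR). Chromatin was sonicated to 200 to 800 bp, per the labels. The sources used here do not give the aligner, the caller or the IDR threshold. The deposited signal value has no stated scale and only ranked regions within a list, and the deposited offset of another column gave the summit. The dm3 lists were not used.

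Words were searched in the Release 6 (dm6) sequence, and TSSs came from Ensembl release 115 (FlyBase annotation 6.54, no transposons). A summit outside promoters took the first matching class of 5' UTR, then coding exon, then 3' UTR, then any other exon, then intron, and intergenic if none matched. The depth per sample is unknown. Scripts used Python 3.11.15 and SciPy 1.17.1 and were tested on simulated sequence. Groups of replicates were compared by exact sign-flip permutation tests. Named genes are the nearest protein-coding genes of the 20 strongest members, members with 3 or more copies, the 10 strongest away from promoters, the 5 with the lowest worst rank, the 5 with the widest rank gap, the 3 weakest, and up to 4 genes per list. The 5 members lacking a region in a replicate, the listed genes farther from a TSS, the close pairs and the peaks with both words were named after their values were seen. The members and lists were chosen with earlier results of these data known. List genes were matched by symbol or synonym, and 3 written symbols matched none. Alternatives changed the window, the TSS distance and set, the same-site distance, the peak set and the replicates.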

Additional observations from a re-analysis of the deposited data

How the results depend on the processing

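The lower promoter share and the higher rank of palindrome regions, and the excess of the palindrome over the control word, kept their direction under each alternative run. The promoter difference ran from -16.6 (TSS within 250 bp) to -6.08 percentage points (TSS within 1000 bp). For the rank and control-word differences the alternatives were chosen after seeing the data. Values without a test moved as follows. With a 50-bp window, palindrome peaks were 7.23% of the optimal set, 2.11% had several copies, the median distance was 16.5 bp, the median rank stood at 32.2% of the list and 8.43% of genomic copies lay at a summit. With a 200-bp window these were 9.74%, 3.76%, 25.5 bp, 35.0% and 11.9%, and the promoter share was 54.9%. The first 1638 ranks held 183 palindrome peaks (11.2%), with 57.4% at promoters, 96.2% recovered in every replicate and a median rank at 39.3%. With both-word peaks kept the median rank stood at 34.2%. A TSS within 250 bp or 1000 bp gave promoter shares of 37.5% and 67.9%. Regions that 2 replicates had in common, each replicate left out in turn, gave shares of 8.83% to 10.5%, promoter shares of 51.8% to 53.6%, several copies in 1.87% (without replicate 2) to 3.15%, distances of 23.0 to 25 bp, recovery of 87.8% to 93.3%, which the sharing itself raises, and median ranks at 40.3% to 43.9%. Except where construction shows it, the cause was not tested. With the nearest region in place of the strongest one at a site, a choice added after seeing the data, 8 member ranks lay beyond 3276 that otherwise did not. Unknown depth limits what can be said of weak peaks.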

Other observations

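The 20 peaks with both words had a median rank of 572, and 17 of them were among the strongest regions of all 3 replicates. At 7 of them the summit lay within 500 bp of a TSS, and in 12 the starts of the words lay within 50 bp of each other. The strongest lay in introns or promoters, with the nearest protein-coding genes Ufd4 (ranks 21, 17 and 8 in replicates 1, 2 and 3), Pkc98E (18, 12 and 58) and Cph (84, 41 and 42). Cph and Dlic were each the nearest gene of a both-word peak and of a palindrome peak, and the both-word peak at Dlic had rank 840. In the Dlic both-word peak the words start 15 bp apart.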
